A study of Mus musculus with 2 samples.

Results

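The expression of 10 cytokine genes was followed in sorted cells of a mouse tumor: the inflammatory cytokines Tnf, Il1a, Il1b, Il6, Il12b, Il18 and Osm, and the regulatory genes Il10, Il1rn and Il18bp. They were taken by gene symbol from both deposited libraries, and all 10 were found, each as 1 locus, among 22886 genes. Messenger RNA was sequenced from cells sorted by flow cytometry out of LLC tumors (Lewis lung carcinoma, a transplantable lung tumor) growing under the skin of wild type C57BL/6 mice. One library came from mice injected with vehicle and the other from mice injected with clodronate, a drug used to deplete macrophages and other phagocytes. There was 1 library per condition, so no difference has a replicate check and no test or p-value is given.

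The labels call the sorted cells aerobic tumor cells and do not say how aerobic cells were gated, how many mice were pooled, or at which dose, time or formulation the drug was given. Age and sex are not given either. A growth protocol in the labels describes EML, a blood progenitor line kept in stem cell factor, which conflicts with the tumor labels. The study did not describe this tumor experiment, so its methods add nothing to the labels. Macrophage markers were high in both libraries and epithelial markers low. All 12 macrophage markers were measured, with Lyz2 at 10534 RPKM (reads scaled to transcript length and library size) in the vehicle library and 11189 RPKM in the clodronate library, and Csf1r, the macrophage growth factor receptor, at 446 and 465 RPKM. The epithelial markers Epcam and Krt19 were listed at 0 in both. Cdh1 was at 6.14 and 6.44 RPKM, Krt8 at 3.67 and 1.33 RPKM and Krt18 at 2.97 and 3.19 RPKM.

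Cytokines of this set are made mainly by macrophages and other myeloid cells after danger or microbial signals. TNF and the IL-1 family start inflammation through NF-kB, IL-6 and oncostatin M signal through gp130 and STAT3, IL-12 drives interferon-gamma production in T and NK cells, and IL-10 restrains the same myeloid programs. IL-1 and IL-18 each have a natural antagonist, the receptor antagonist encoded by Il1rn and the soluble binding protein encoded by Il18bp. In tumors these cytokines are known both as promoters of growth and as drivers of immune control.

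Il1b was the most abundant of the 10 mRNAs in the vehicle library and Il1rn in the clodronate library. In vehicle the order by RPKM, which is per length and can be compared between genes, ran from Il1b through Il1rn, Tnf, Osm, Il18, Il18bp, Il10, Il1a and Il6 to Il12b. In clodronate the order was Il1rn, Il1b, Tnf, Osm, Il10, Il18bp, Il1a, Il18, Il6 and Il12b, so Il10 moved up and Il18 moved down while Tnf and Osm kept their places. Without replicates, the spread that would separate neighbours in these orders is not known. Tnf, Il1b and Il1rn lay in the top 10% in both libraries, among the 10982 genes whose mean level reached 1 RPKM, and this upper range began at 72.3 RPKM in vehicle and 73.7 RPKM in clodronate. The median of those genes was 11.1 and 11.3 RPKM. The 10 levels summed to 673 RPKM in vehicle and 443 RPKM in clodronate, and Il1b made up 41.3% of the first sum and 21.9% of the second.

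**Figure D1:**
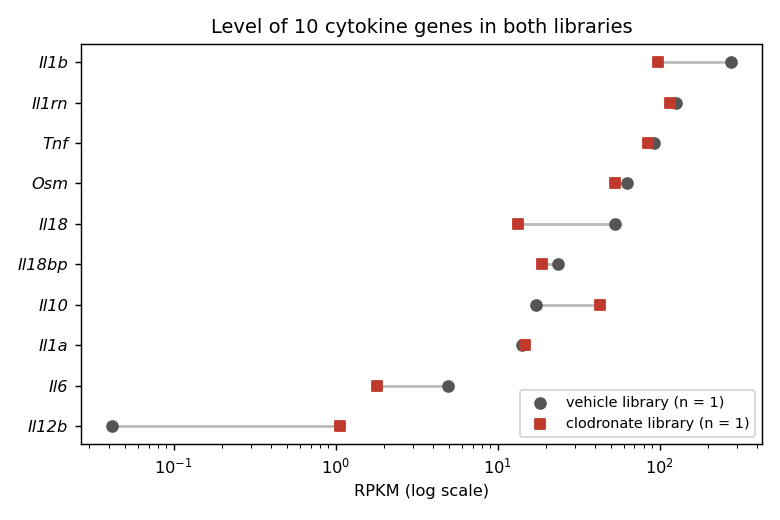
Level of the 10 cytokine genes in RPKM on a log axis, with a circle for the vehicle library and a square for the clodronate library, 1 library each, and genes in order of the vehicle level. Il1b, Il18 and Il6 lie further left in clodronate, Il10 and Il12b further right, and the other symbols nearly overlap; Il12b had about 1 read in vehicle.

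The comparison asks which of these mRNAs were lower or higher in the sorted cells after clodronate. Each difference is a log2 ratio of the clodronate level to the vehicle level after 1 was added to both RPKM values, for genes whose mean level reached 1 RPKM. Of the 10 genes, 9 passed this minimum, and Il12b did not. At a threshold of 3-fold, 1 of the 9 was lower, Il18, where 2.32% of all genes kept were that much lower, and 0 of the 9 were higher, where 2.86% of all genes kept were. At 2-fold, 3 of the 9 were lower (Il18, Il1b and Il6; 6.77% of all genes kept) and 1 was higher (Il10; 6.95%). The other 5 lay within 0.35 of 0 on the log2 scale. In all, 7 of the 9 were lower and 2 were higher, though Il1rn changed from -0.12 to 0.03 when ratios were corrected for GC content and transcript length. The median log2 ratio was -0.25 over the 9 genes and 0.02 over all genes kept, with quartiles of -0.38 and 0.40.

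**Figure D2:**
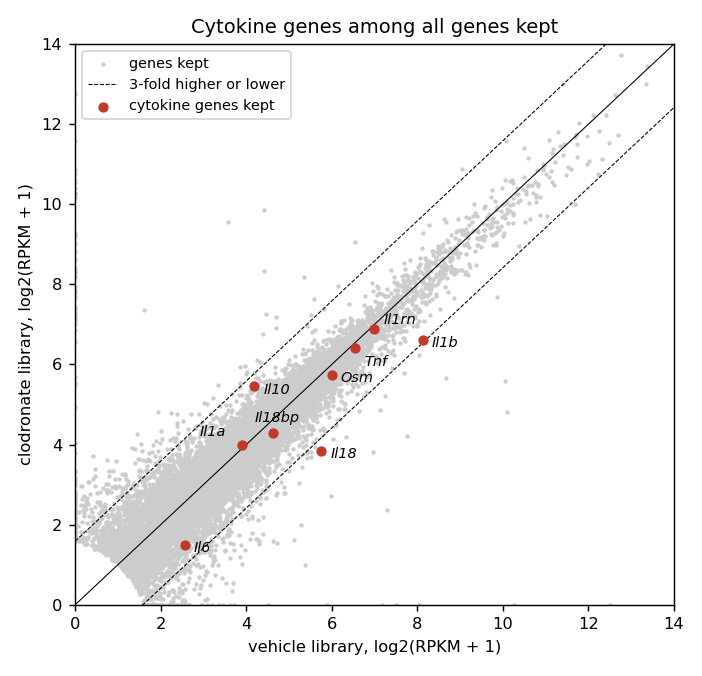
Each gray point is 1 of the 10982 genes kept, by its log2(RPKM + 1) in the vehicle library (horizontal) and the clodronate library (vertical). Red points are the 9 cytokine genes kept, the solid line marks equal levels and the dashed lines mark 3-fold; Il18 lies below the lower dashed line, Il1b close to it, and Il10 nearest to the upper one.

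The files hold no read counts, but the smallest values fell on steps, from which the worth of 1 read could be estimated. If RPKM were scaled to total reads, the vehicle library held about 1.23 times the reads of the clodronate library, near 12500000 and 10200000 reads. The scaling used is not given. Reads per gene estimated from the worth of 1 read give exact binomial 95% intervals on the fold difference in RPKM. These intervals cover counting error only, and differences between mice, sorts or library preparations are outside them. The interval of Il1a held equality, while those of the other 9 genes did not. Il6 and Il12b rested on the fewest reads, with about 1 read of Il12b in vehicle.

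**Figure D3:**
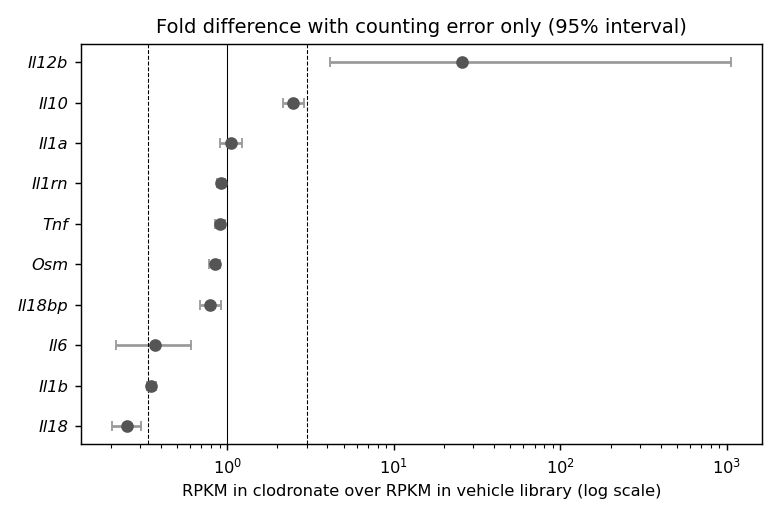
Ratio of clodronate to vehicle RPKM for the 10 cytokine genes on a log axis, with 95% intervals for counting error only. The solid line marks equal levels and the dashed lines mark 3-fold; the interval of Il18 lies wholly past the lower 3-fold line, those of Il6 and Il1b reach it, and that of Il12b spans from 4.14 to 1064.

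Il18 and Il1b, both of the IL-1 family, had the lowest log2 ratios of the 9 genes kept. Il1b, the secreted IL-1 that caspase-1 matures, stood at 278 RPKM in the vehicle library and 97.2 RPKM in the clodronate library. It was 2.86-fold lower in RPKM (95% counting interval 2.69 to 3.04, about 4700 and 1300 reads), a log2 ratio of -1.51. Its place among the genes kept went from 330 to 844, and 2.69% of those genes had a ratio as low or lower. Il1b spans chr2:129190316-129201469 on mm9 and overlaps Il1bos, an antisense locus listed at 1.76 and 0.373 RPKM. Strandedness of the libraries is not given, so reads of the overlap cannot be assigned with certainty.

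Il18, an IL-1 relative that raises interferon-gamma output and is also matured by caspase-1, was at 53.1 RPKM in vehicle and 13.3 RPKM in clodronate. It was 4.0-fold lower in RPKM (counting interval 3.27 to 4.92, about 570 and 120 reads), with a log2 ratio of -1.92. Its place went from 1484 to 4966 among 10982 genes, and 1.26% of those genes had a ratio as low or lower. The log2 ratio became -1.49 when ratios were corrected for GC content and transcript length, which is short of 3-fold. Il18 lies at chr9:50373473-50389942 on mm9.

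Il1a, the IL-1 that is active without cleavage and acts as an alarm signal of dying cells, was nearly level. It stood at 14.1 RPKM in vehicle and 14.8 RPKM in clodronate, a ratio of 1.05 (counting interval 0.90 to 1.23), and the overlapping locus Gm14023 was listed at 0 and 1.58 RPKM. Il1a lies at chr2:129123106-129135708 on mm9, next to Il1b. Within a library Il1b exceeded Il1a 19.8-fold in vehicle and 6.56-fold in clodronate.

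The promoters of the 2 IL-1 family genes that were at least 2-fold lower are shown for comparison, from 250 bases before to 50 bases after the RefSeq start, on GRCm38.p6. They lie at chr2:129371090-129371389 on the minus strand for Il1b and at chr9:50554450-50554749 on the plus strand for Il18. Capitals mark TATAAA, or its reverse complement, the letters of a TATA box. In Il1b the match began at -31 on the strand of the gene, with the base before the start counted as -1, and in Il18 it began at -175 on the other strand.
Il1b: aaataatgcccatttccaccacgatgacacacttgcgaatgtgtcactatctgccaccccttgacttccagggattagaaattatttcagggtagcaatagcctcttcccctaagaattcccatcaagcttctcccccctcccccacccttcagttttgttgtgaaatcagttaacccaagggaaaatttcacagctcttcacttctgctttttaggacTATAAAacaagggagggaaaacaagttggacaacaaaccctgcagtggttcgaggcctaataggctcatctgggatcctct
Il18: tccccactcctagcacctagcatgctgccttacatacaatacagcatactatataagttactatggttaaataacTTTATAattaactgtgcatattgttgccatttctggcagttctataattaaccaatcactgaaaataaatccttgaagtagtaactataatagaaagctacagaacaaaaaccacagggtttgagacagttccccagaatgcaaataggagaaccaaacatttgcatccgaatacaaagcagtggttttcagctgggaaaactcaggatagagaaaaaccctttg

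The antagonists Il1rn and Il18bp both lay within 2-fold. Il1rn was at 126 RPKM in vehicle and 116 RPKM in clodronate, 1.08-fold lower (counting interval 1.03 to 1.14, chr2:24192380-24207011 on mm9). Il18bp was at 23.6 and 18.7 RPKM, 1.26-fold lower (1.09 to 1.46, chr7:109163591-109166669). Set against their ligands within a library, both antagonists weighed more in clodronate, through lower Il1b and Il18 and not through higher antagonist mRNA. Il1rn stood at 0.433 of the sum of Il1a and Il1b in vehicle and at 1.04 of that sum in clodronate, 2.40 times as much. Il18bp stood at 0.445 of Il18 in vehicle and at 1.41 of Il18 in clodronate, 3.17 times as much, so the binding protein mRNA was below its ligand in the vehicle library and above it in the clodronate library. These are ratios of mRNA levels, and protein was not measured. They were not recomputed with the correction for GC content and transcript length, in which the log2 ratio of Il18 became -1.49.

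Tnf, the cytokine released from the cell surface by ADAM17, stayed high in both libraries. It was at 92.9 RPKM in vehicle and 84.3 RPKM in clodronate, 1.1-fold lower (counting interval 1.03 to 1.18, about 1900 and 1400 reads), and lies at chr17:35336336-35338941 on mm9. Osm, which encodes oncostatin M, a gp130 cytokine of myeloid cells that acts on stroma and epithelium, was at 62.8 and 52.7 RPKM, 1.19-fold lower (1.11 to 1.28, chr11:4136788-4141029). These levels kept both genes among the upper 13.97% of genes kept in each library.

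Il6, the gp130 cytokine of the acute phase response, was far less abundant than Tnf. It was at 4.93 RPKM in vehicle and 1.81 RPKM in clodronate, 2.72-fold lower with a wide counting interval of 1.65 to 4.67 from about 70 and 21 reads. Its log2 ratio of -1.08 became -0.72 after correction for GC content and transcript length, short of 2-fold, and 5.85% of genes kept had a ratio as low or lower. Tnf exceeded Il6 18.9-fold in vehicle and 46.5-fold in clodronate. Il6 lies at chr5:30339701-30346508 on mm9.

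The Il6 promoter is shown because it was the only one of the promoters found to match 3 of the motifs searched. It lies at chr5:30012864-30013163 on the plus strand of GRCm38.p6, from 250 bases before to 50 bases after the RefSeq start. Capitals mark, in order, an AP-1 site beginning at -249, a C/EBP site on the other strand at -128 and an NF-kB site at -44, counted from the start with the base before it as -1.
Il6: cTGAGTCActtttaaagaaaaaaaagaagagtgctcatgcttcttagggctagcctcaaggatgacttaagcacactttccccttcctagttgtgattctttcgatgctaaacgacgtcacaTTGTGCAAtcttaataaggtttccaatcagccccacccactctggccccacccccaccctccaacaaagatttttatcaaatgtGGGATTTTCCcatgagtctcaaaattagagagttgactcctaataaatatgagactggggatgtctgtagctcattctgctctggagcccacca

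RefSeq promoters were found for 8 of the 10 genes, in 10 windows, with none for Il10 and Osm. Matches were sought on both strands, and no matches of different motifs in these windows overlapped. The NF-kB site was matched in 1 of the 8 genes (Il6) and in 8.46% of 32817 promoters of the same length. TGANTCA (AP-1) was matched in Il1a, Il1rn and Il6 and in 7.81% of promoters, TTGCNNAA (C/EBP) in Il6 and Il18bp and in 10.8%, and TATAAA in Il18, Il1a, Il1b, Il1rn and Tnf and in 13.6%. GAAANNGAA (interferon response), GAGGAAGT (PU.1) and TGACGTCA (CRE) were matched in 0 of the 8 genes and in 8.55%, 3.20% and 1.79% of promoters. Whether any motif goes with a difference cannot be told from so few genes and windows. A match describes letters in this window and is not evidence of binding.

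Cytokine mRNAs are classic carriers of AU-rich elements in the 3′ UTR, where tristetraprolin, encoded by Zfp36, binds and marks the mRNA for decay. For 6 genes a stretch with the most pentamers is shown, as 30 bases of the 3′ UTR on the strand of the gene (GENCODE M21, GRCm38), with each pentamer ATTTA in capitals. Where such stretches began at consecutive bases the middle one is shown, and otherwise the first. The stretches of Il10 and Il18 hold only 1 pentamer each. Tnf is shown as the densest, Il1b, Il6 and Il18 as the genes lower in clodronate, and Il10 and Il12b as those higher. Their positions are chr17:35199677-35199706 (minus strand), chr2:129364801-129364830 (minus strand), chr5:30019677-30019706, chr9:50581799-50581828, chr1:131024372-131024401 and chr11:44413473-44413502 (plus strand).
Tnf: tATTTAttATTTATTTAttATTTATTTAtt
Il1b: ttacctATTTATTTAtgtATTTAttgattg
Il6: tttaattatttttaATTTAttgataATTTA
Il18: cgaggctgcatgATTTAtagagtaaacacg
Il10: cctcgtttgtacctctctccgaaatATTTA
Il12b: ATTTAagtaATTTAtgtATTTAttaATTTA

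Over the whole 3′ UTR, the longest annotated for each gene, Il6 held 10 pentamers in 1668 nt, Tnf 8 in 764 nt, Il10 6 in 706 nt, Il12b 6 in 797 nt, Osm 6 in 1017 nt and Il1b 4 in 459 nt. Il1a and Il18bp held 3 each, Il18 held 1 in 334 nt and Il1rn held 0 in 1864 nt. Of the 10 genes, 5 held 5 or more pentamers, against 10.3% of the 10150 genes whose 3′ UTR length lies in the same range of 334 to 1864 nt. Per kilobase, Tnf held 10.5, Il1b 8.71, Il10 8.50 and Il18 2.99, beside a median of 1.40 over those genes. The nonamer TTATTTATT, which contains the pentamer, stood only in Tnf among the 10 genes, in 5 overlapping copies, and in 5.80% of the genes of that length range. Il1b and Il10 were nearly as dense as each other, and Il18 was less dense. With 1 library per condition and few genes, these densities cannot be related to the differences. Decay of mRNA was not measured, and a part of these elements in the differences was not tested.

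Il10, the main restraining cytokine of macrophages, was the only gene of the 9 kept that was at least 2-fold higher in clodronate. It was at 17.2 RPKM in vehicle and 42.8 RPKM in clodronate, 2.49-fold higher (counting interval 2.16 to 2.88, about 280 and 570 reads), with a log2 ratio of 1.27. Across the alternatives tried the ratio ran from 1.21 to 1.47. In all, 4.48% of the genes kept had a ratio as high or higher. Il10 lies at chr1:132916422-132921547 on mm9.

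Il12b encodes the p40 chain shared by IL-12 and IL-23, and IL-10 is known to repress it. It was at 0.0415 RPKM in vehicle and 1.07 RPKM in clodronate (chr11:44213565-44227519 on mm9), which corresponds to about 1 and 21 reads and a ratio of 25.7 with a counting interval of 4.14 to 1064. The log2 ratio was 0.99 with 1 added to each RPKM and 3.05 with 0.1 added, so its size depends on that choice. Il10 and Il12b were thus both higher in the clodronate library, and Il10 exceeded Il12b 414-fold in vehicle, a figure that rests on 1 read, and 40.1-fold in clodronate. The partner chains were near 0, with Il12a listed at 0 in both libraries and Il23a at 0.753 RPKM in vehicle and listed at 0 in clodronate. Without its partner, p40 cannot form IL-12.

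Genes that receive, process or regulate these cytokines were taken as 7 lists of 87 genes, of which 64 reached a mean of 1 RPKM. Of these 64, 1 was at least 3-fold higher and 4 were at least 3-fold lower. The higher one was Clcf1, a gp130 cytokine listed at 0 in vehicle and at 4.77 RPKM in clodronate. The lower ones were Irak1, Il27, Il34 and Ifng. Clcf1, Il27, Il34 and Ifng reached the minimum mean only through the library where they were high, so their counts are not read against the shares over all genes, and with a minimum mean of 5 RPKM only Irak1 was left. List medians lay between -0.15 and 0.26 on the log2 scale, and that of the 9 cytokines kept was -0.25. All of these lay between the quartiles of all genes kept, -0.38 and 0.40, and some list medians moved with the minimum mean.

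Among 7 genes of TNF reception and release the median was -0.02, and 1 was at least 2-fold lower, where 6.77% of all genes kept were. That was Tradd, the adaptor of the first TNF receptor, at 16.0 RPKM in vehicle and 7.0 RPKM in clodronate. The receptors themselves were abundant in both libraries, with Tnfrsf1a at 90.4 and 89.1 RPKM and Tnfrsf1b at 103 and 90.4 RPKM. Of the release machinery, the protease gene Adam17 was at 42.0 and 53.5 RPKM, and Rhbdf2, which carries the protease to the surface, was at 32.5 and 51.0 RPKM.

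Of 14 genes for IL-1 and IL-18 receptors, adaptors and processing, 12 were kept, with a median of -0.15. Irak1, a kinase downstream of MyD88, was 22.4-fold lower, at 1054 RPKM in vehicle and 47.1 RPKM in clodronate. The other 11 lay within 2-fold, as did most genes kept. The place of Irak1 among the genes kept went from 93 to 1714. Overlapping loci were searched only for the cytokine genes of the set, so whether all these reads belong to Irak1 was not checked. Casp1, the protease that matures both IL-1 beta and IL-18, was at 33.0 and 18.9 RPKM, 1.74-fold lower, in the same direction as Il1b and Il18. The inflammasome genes Nlrp3 (102 and 107 RPKM) and Pycard (19.8 and 24.4 RPKM) did not share that direction. The signalling receptor Il1r1 was low, at 3.50 and 2.18 RPKM, the decoy receptor Il1r2 was at 9.68 and 10.7 RPKM, and the IL-18 receptor was close to the limit, with Il18r1 at 0.0734 and 0.157 RPKM and Il18rap listed at 0 in vehicle and at 0.351 RPKM in clodronate. These cells thus held the ligand mRNA of IL-18 with little mRNA of its receptor.

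For the gp130 cytokines all 7 genes kept of 8 lay within 2-fold, as did most of all genes kept, with a median of 0.13. Il6ra was at 60.8 and 66.4 RPKM and the shared chain Il6st at 16.9 and 17.7 RPKM, whereas Osmr, the oncostatin M receptor chain, was at 0.298 RPKM in vehicle and listed at 0 in clodronate. Stat3 was at 69.6 RPKM in vehicle and 98.5 RPKM in clodronate, and Socs3, its feedback inhibitor, at 58.5 and 77.3 RPKM. Of the genes kept, 20.0% had a ratio as high as that of Stat3 or higher, and 25.1% as that of Socs3. Lifr was at 13.2 and 24.5 RPKM and Jak2 at 19.9 and 11.8 RPKM.

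All 7 genes kept of 9 for IL-10 and IL-12 reception also lay within 2-fold, as did most of all genes kept. Il10ra, the chain specific to IL-10, was at 95.6 RPKM in vehicle and 64.7 RPKM in clodronate, opposite in direction to Il10, and Il10rb was at 105 and 88.1 RPKM. Maf, a transcription factor known to drive Il10 in macrophages, was at 54.0 and 72.5 RPKM. Of the genes kept, 23.8% had a ratio as high as that of Maf or higher. Nfil3, of the same list, was lower, at 53.7 and 44.9 RPKM. The IL-12 receptor was near 0, with Il12rb1 listed at 0 and at 0.633 RPKM and Il12rb2 at 1.06 RPKM and listed at 0. The list median was 0.25 and became -0.0017 with a minimum mean of 5 RPKM.

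The 16 regulators of cytokine transcription and mRNA decay were all kept, with a median of 0.17. All lay within 2-fold, as did most genes kept, of which 6.95% were at least 2-fold higher and 6.77% lower. Zfp36 was the most abundant, at 677 RPKM in vehicle and 835 RPKM in clodronate, and Zc3h12a, an RNase of cytokine mRNAs, was at 48.1 and 60.7 RPKM. The NF-kB inhibitor Nfkbia was at 277 and 313 RPKM, Tnfaip3 at 216 and 241 RPKM, and Nfkbiz, a nuclear cofactor for Il6 and other secondary genes, at 283 and 213 RPKM. Spi1, which encodes PU.1, was at 208 and 333 RPKM, and Cebpb at 162 and 143 RPKM.

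Of 19 further cytokines of the same families 8 were kept, and 6 were listed at 0 in both libraries. Il27, the p28 chain of IL-27, was 13.1-fold lower in RPKM, at 6.94 RPKM in vehicle and 0.531 RPKM in clodronate. With 1 added to each RPKM its log2 ratio was -2.37, and its reads were not estimated. The partner chain Ebi3 was at 11.8 and 19.2 RPKM. Il1f9, an IL-36 gene of the IL-1 family, was 2.87-fold lower in RPKM, at 4.07 and 1.42 RPKM, with a log2 ratio of -1.07. Il33 was at 5.76 and 2.63 RPKM. The median of this list was -0.12 and became 0.73 with a minimum mean of 5 RPKM. Of 14 other inflammatory and regulatory cytokines 7 were kept and 7 were listed at 0 in both, among them Il4, Il13 and Il17a. Ifng was at 2.75 RPKM and Il34 at 2.06 RPKM in vehicle, and both were listed at 0 in clodronate. Spp1, which encodes osteopontin, was at 406 and 755 RPKM, Mif at 383 and 499 RPKM, and Tgfb1, a regulatory cytokine like Il10, at 112 and 167 RPKM.

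**Figure D4:**
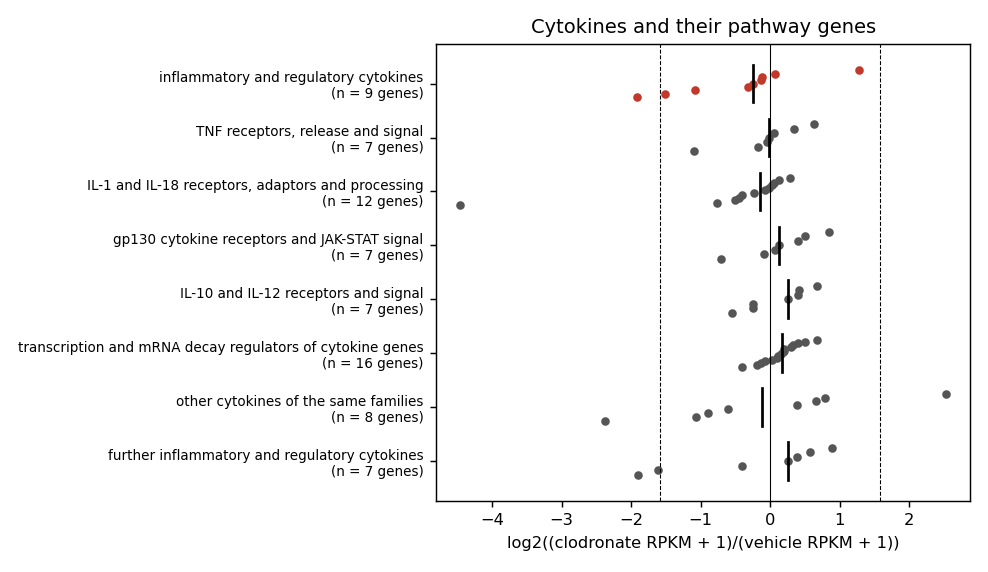
Log2 of (clodronate RPKM + 1) over (vehicle RPKM + 1) for each gene kept (points) of the 10 cytokines (red, 9 kept) and of 7 lists of related genes (gray), with the list median as a black bar and dashed lines at 3-fold. The list of regulators lies wholly within 2-fold, as do most of all genes kept, and Irak1 at -4.45 is the leftmost point.

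In bulk samples a lower mRNA can come from fewer cells of a type or from less mRNA per cell, and the 2 cannot be told apart here. Macrophage markers summed to 23865 RPKM in vehicle and 22970 RPKM in clodronate. All 12 lay within 2-fold, as did most genes kept. Adgre1 (listed as Emr1) was at 357 and 261 RPKM, C1qc at 3984 and 2043 RPKM and Mrc1 at 174 and 289 RPKM. The 5 monocyte markers summed to 145 and 168 RPKM, with Chil3 lower, at 36.4 and 14.8 RPKM, and Plac8 higher, at 45.4 and 91.8 RPKM. Of 8 neutrophil markers found of 9, summed at 43.1 and 45.1 RPKM, S100a9, Mpo, Camp, Ngp and Retnlg were listed at 0 in both. Csf3r was at 26.4 and 19.3 RPKM and Cxcr2 at 4.06 and 2.69 RPKM, while S100a8 was higher, at 12.7 and 23.1 RPKM. The 7 fibroblast markers summed to 154 and 75.4 RPKM, carried by Dcn at 77.3 and 28.4 RPKM and Col3a1 at 62.1 and 34.4 RPKM, while Col1a2 was at 2.01 and 1.94 RPKM and Col1a1 was higher, at 2.32 and 5.4 RPKM. The 6 mast cell and basophil markers summed to 60.9 and 43.5 RPKM, mostly Cpa3 at 33.0 and 21.6 RPKM and Mcpt4 at 25.1 and 20.2 RPKM, with Mcpt8 listed at 0 in both. The 7 dendritic cell markers summed to 6.77 and 13.0 RPKM, but only Cd209a carried the higher sum, at 1.25 and 8.68 RPKM, while Ccr7 was at 3.36 and 2.31 RPKM and Clec9a at 0.979 and 0.421 RPKM. The 6 endothelial markers summed to 3.34 and 7.84 RPKM, with Cdh5 at 0.480 and 3.24 RPKM, Pecam1 at 1.24 and 3.33 RPKM, Vwf at 0.967 and 0.443 RPKM, and Tek and Cldn5 listed at 0 in both. T and NK cell markers (8 found of 9) summed to 10.3 RPKM in each library, with Cd3e, Cd3g and Ncr1 listed at 0 in both. Cd4 was at 10.3 and 7.72 RPKM. Klrb1c, Gzmb, Nkg7 and Cd8a were listed at 0 in vehicle and at 0.918, 0.586, 1.02 and 0.0307 RPKM in clodronate. Epithelial markers (5) summed to 12.8 and 11.0 RPKM. The part of any of these cells in the cytokine differences was not tested.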

How the data were processed

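The 2 libraries, 1 per condition, were grouped by their labels. The authors deposited RPKM values for 23170 gene loci per library, made, per the submitters' processing notes, with CASAVA 1.8.2, TopHat2 2.0.9, Bowtie 0.12.9, Cufflinks 2.2.1 and Cuffdiff on mm9; settings are not given in the sources used here. Count models were not used, since RPKM are scaled values. In 26 loci a number stood in place of the symbol, and the RefSeq accession was used. Loci of 1 symbol were summed, which left 22886 genes. Ratios used a pseudocount of 1, which understates differences of low genes, and the 10982 genes whose mean reached 1 RPKM. Where RPKM scale with total reads, a few abundant genes can shift all other values.

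Depth was estimated from the smallest values: 48 low loci shared 1 ratio between libraries, and of 70 loci with about 1 read in vehicle, 98.6% were whole reads in clodronate within 0.02. Reads per gene are RPKM times transcript length over the worth of 1 read, and intervals are exact binomial (Clopper-Pearson, 95%).

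The 10 cytokines and the gene lists were chosen with earlier results of these data known. Named genes are the 10 cytokines, the genes of the 7 lists and the markers. Results for 1 marker list are not reported here. Tried in their place were no filter on low values, a minimum mean of 5 RPKM, a pseudocount of 0.1, centring on the median, scaling to the upper quartile, the highest locus per symbol, a 2-fold threshold and, chosen after seeing the data, correction for GC content and transcript length in 10 bins each (found for 98.7% of genes kept). File coordinates (mm9) were never combined with GRCm38. Scripts were tested on simulated data. Python 3.11.15, numpy 2.4.6, pandas 2.3.3, scipy 1.17.1 and matplotlib 3.10.9 were used.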

Additional observations from a re-analysis of the deposited data

How the results depend on the processing

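Among the 10 cytokines, 62 of 64 single-gene values under the alternatives kept their call at 3-fold. The others were Il18 corrected for GC content and transcript length (-1.49, leaving 0 genes at least 3-fold lower) and Il12b with a pseudocount of 0.1 (3.05). At 2-fold, 1 cytokine was higher and 3 were lower, among 763 higher and 744 lower genes. With a pseudocount of 0.1, 532 genes were at least 3-fold higher and 480 lower, and with a minimum mean of 5 RPKM 127 and 101. The other alternatives gave 286 to 316 higher and 206 to 268 lower genes. The cytokine median lay between -0.31 and -0.19. With a minimum mean of 5 RPKM, which leaves fewer genes, the median of the IL-10 and IL-12 list was -0.0017 and that of further family cytokines 0.73. No filter, a minimum mean of 5 RPKM and the highest locus per symbol could not change the ratio of any single cytokine gene. Their values are thus among those kept by design. A kept call at 3-fold also covers Il6 at -0.72 and Il1rn at 0.03 after correction for GC content and transcript length. Replicate error is unknown, since there was 1 library per condition. Depth limits Il12b and Il6 most, at about 1 and 70 reads in the vehicle library.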
